A study of Nicrophorus vespilloides with 24 samples.

Results

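Among the 11403 loci counted in heads of the burying beetle *Nicrophorus vespilloides*, 4 are described here that held few or no counts in beetles that were not caring and many counts in beetles caring for larvae. A locus here is a contig, or a group of overlapping contigs, of a transcriptome assembled without a genome. The 4 loci were Locus_65710, Locus_72396, Locus_29626 and Locus_C912054. They were chosen on these counts in control and caring beetles, so the difference between those states is a description of how they were picked and was not tested.

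Burying beetle parents bury and strip a small vertebrate carcass, treat it with oral and anal secretions and feed their larvae with predigested, regurgitated carrion. Serine proteases of the chymotrypsin type are secreted enzymes that cut proteins, most often in digestion. Cytochrome P450 enzymes oxidise small, mostly fat-soluble compounds, and the 4G subfamily is known from *Drosophila* for the last step in making cuticular hydrocarbons, the waxy lipids that insects also use as contact signals. Pheromone-degrading enzymes inactivate odour molecules, and blast names in these data list some of them as cytochrome P450-like proteins.

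The best blast hits gave the 4 loci these identities. Locus_65710 matched a *Tribolium castaneum* protein listed as chymotrypsin-like proteinase 6A precursor and serine protease P155. Locus_72396 matched cytochrome P450 4g15 of the butterfly *Papilio xuthus*. Locus_29626 matched a predicted *Tribolium castaneum* protein described as similar to a pheromone-degrading enzyme. At Locus_C911422, Locus_76596 and Locus_5772 that name stands together with cytochrome P450-like protein, so Locus_29626 may also be a P450 locus. Locus_C912054 matched GL23410, a *Drosophila persimilis* protein with no described function. The matches are names of similar proteins in other insects, and no function was measured here. Contig sequences and positions in a genome were not used here.

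Each of 24 RNA libraries pooled the heads of 10 beetles, and each of 12 groups had 2 libraries. Control beetles had been paired and could mate but were given no carcass, caring beetles were taken from the carcass near their larvae, and post-caring beetles had stayed with larvae for days and then left them. Each state was sampled in females and males under a uniparental condition, made by removing the mate, and under a biparental condition, in which both parents stayed. All beetles were 21 days past adult eclosion at harvest. By the study's methods, each beetle was kept alone for 24 h between removal and harvest of the head. Caring libraries are thus from beetles taken away from care 24 h before, and while caring refers to these libraries below. Both social conditions had controls and post-caring beetles of their own. Biparental males were taken only when seen near the young, so caring itself was not scored for each beetle. The labels call the tissue brains and the study's methods call it whole heads with fat body and connective tissue. In such bulk samples fewer cells of a type and less RNA per cell cannot be told apart. Nothing says that the 2 libraries of a group were pooled from separate broods or days, and p-values measure the spread between such libraries.

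The deposited values were expected counts, which RSEM estimates by sharing reads among similar contigs. Library totals lay between 14647691 and 23906173 counts, with a median of 15440456.5 in biparental and 20099485.5 in uniparental libraries. The level of a locus is given in CPM, its count for every 1000000 counts of the library after adjustment with edgeR's TMM method. The TMM factors lay between 0.672 and 1.08 in biparental and between 0.839 and 1.47 in uniparental libraries. Markers of head tissues were found by blast name within the study's caring set and differed between libraries. Such loci were called for caring, so their sums can reflect regulation of the genes as well as tissue content. Vitellogenin, among the fat body names below, is a yolk protein that the study reports as lower during parenting. The 2 loci with neuropeptide or synaptic names summed to 0.400 to 8.83 CPM. As 2 loci of the caring set they do not measure how much brain the samples held. The summed level of 13 loci with the blast names vitellogenin, hexamerin or arylphorin, proteins of the fat body, ranged from 1621 to 587095 CPM in controls, from 74.1 to 84560 CPM in caring beetles and from 246 to 232163 CPM in post-caring beetles. The summed level of 2 opsin loci, markers of the eye, ranged from 315 to 5561 CPM over the same libraries, and 5 muscle loci summed to between 12451 and 121766 CPM. Levels are compared between groups for a locus and not between loci, because contig lengths were not used here.

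In controls the 4 loci were at or near silence. The counts of Locus_65710 in the 8 control libraries had a lowest value of 0, a median of 1 and a highest value of 2. Those of Locus_72396 had a lowest value of 0, a median of 1 and a highest value of 5. For Locus_C912054 the corresponding counts were 0, 1.5 and 5. At this depth such values are single reads, and a count of 3 or fewer was taken as the floor, which covers counting error only. Locus_29626 was the exception in 1 sex. It had 4, 8, 8 and 4.01 counts in the 4 control female libraries and 0, 1, 0 and 0 counts in the 4 control male libraries. No control female library overlapped a control male library at this locus in CPM, a separation found at 3.03% of all loci.

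**Figure D1:**
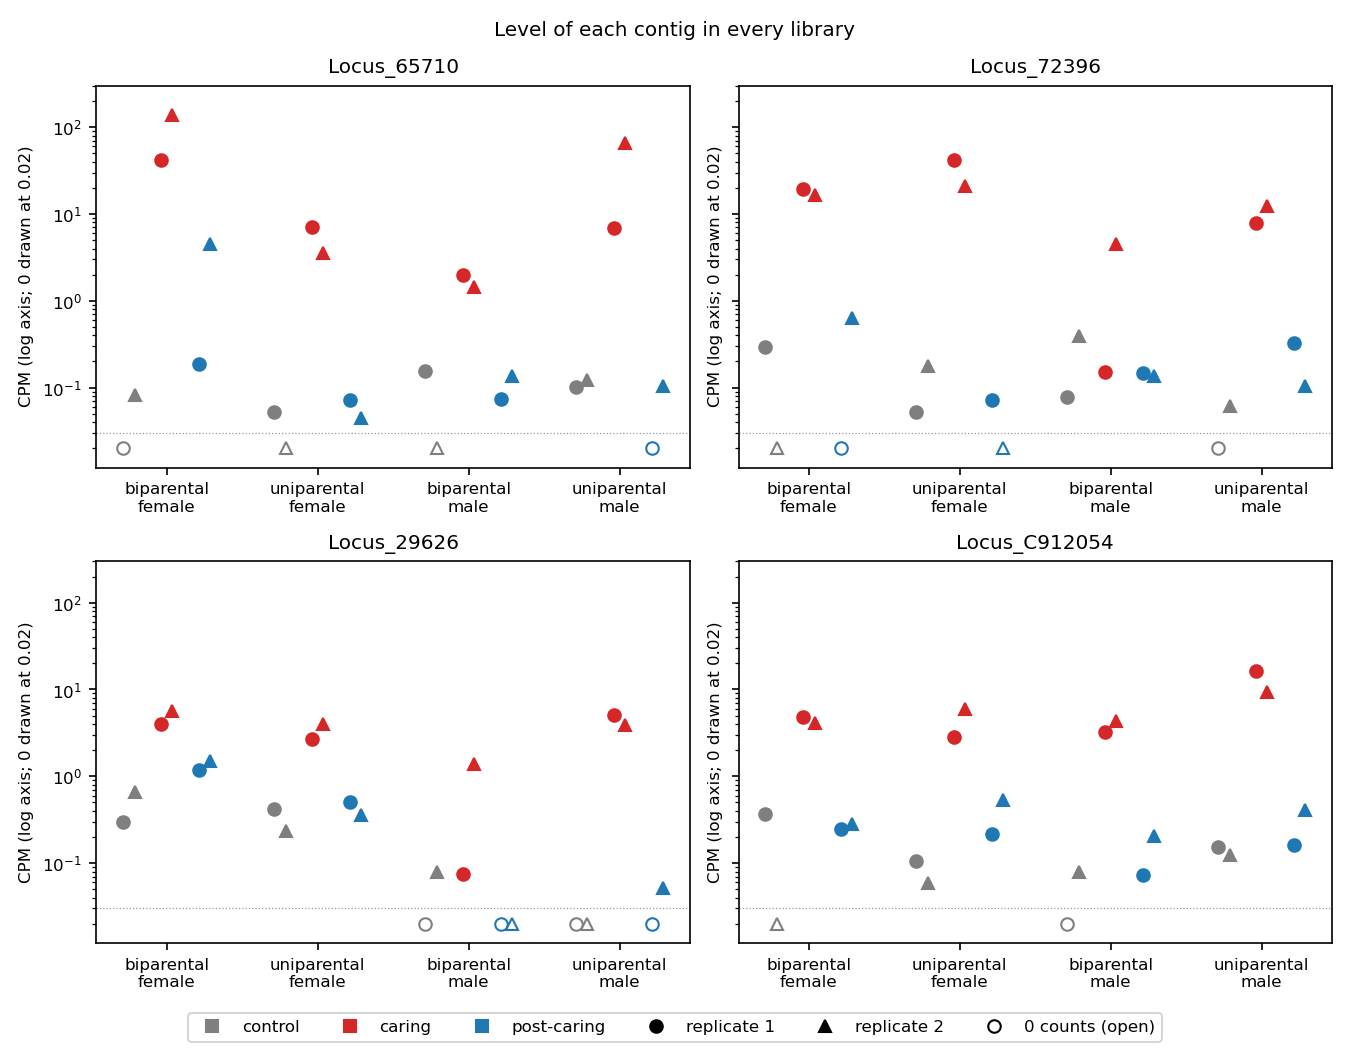
Level of the 4 loci in each of the 24 libraries, in CPM on a log axis, by sex and social condition; colours mark control (grey), caring (red) and post-caring (blue) libraries, shapes mark the replicates, and open symbols at the bottom are libraries with 0 counts. The caring libraries of Locus_65710 and Locus_C912054 all stand above the control libraries, whereas caring biparental male replicate 1 lies in the control range of Locus_72396 and Locus_29626.

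While caring, the protease locus, Locus_65710, had 654 and 2370.5 counts in biparental females. It had 167 and 109.99 counts in uniparental females. It had 25.8 and 21.4 counts in biparental males, and 180.04 and 1678 counts in uniparental males. The 8 caring libraries thus spanned 1.45 to 138 CPM, against at most 0.155 CPM in any control library. The order of the group means was biparental females with 90.03 ± 68.0 CPM, uniparental males with 36.5 ± 41.9 CPM, uniparental females with 5.30 ± 2.48 CPM and biparental males with 1.71 ± 0.361 CPM (SD, n = 2 libraries each). The libraries of biparental females and uniparental males overlapped, as did those of uniparental males and uniparental females. Between the 2 uniparental male libraries alone the level differed 9.63-fold.

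The P450 locus, Locus_72396, had 1000.01 and 655 counts in caring uniparental females and 303.3 and 286 counts in caring biparental females. Caring uniparental males had 205 and 316 counts. The 2 caring biparental male libraries had 2 and 65 counts. Replicate 1 of the biparental males was therefore no higher than controls, and the level differed 29.8-fold between the 2 libraries of that group. The group means were 31.7 ± 14.9 CPM in uniparental females, 18.1 ± 1.96 CPM in biparental females, 10.1 ± 3.27 CPM in uniparental males and 2.32 ± 3.07 CPM in biparental males (SD, n = 2 libraries each). No library of one of these groups overlapped a library of the next in this order.

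Locus_29626, the match to a pheromone-degrading enzyme, had 62 and 97 counts in caring biparental females and 63.9 and 124 counts in caring uniparental females. It had 132 and 98 counts in caring uniparental males. The 2 caring biparental male libraries had 1 and 20 counts, the same library standing low as at the P450 locus. The means of the other 3 caring groups lay between 3.35 and 4.81 CPM, and their libraries overlapped. Caring biparental males had a mean of 0.729 ± 0.924 CPM (SD, n = 2 libraries).

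The uncharacterised Locus_C912054 had caring group means within a factor of 3.42 of each other. It had 76 and 71 counts in caring biparental females, 67 and 184 counts in caring uniparental females and 43 and 62 counts in caring biparental males. Caring uniparental males had 433 and 235 counts, with a mean of 12.9 ± 5.14 CPM (SD, n = 2 libraries), and did not overlap the other caring groups. The means of the other 3 groups lay between 3.77 and 4.51 CPM, with overlapping libraries.

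The lowest of the 8 caring libraries was above the highest of the 8 control libraries at 2 of the 4 loci, Locus_65710 and Locus_C912054. This holds for 0.438% of all loci, but the loci were picked for this contrast and nothing is read from the count. Within a sex and social condition, both caring libraries were above both control libraries at all 4 loci in biparental females, where 22.9% of all loci show this. The count was also 4 of 4 in uniparental females, against 23.5% of all loci, and in uniparental males, against 25.6%. In biparental males it was 2 of 4, against 15.6%, and the exceptions were Locus_72396 and Locus_29626.

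Ratios of caring to control were formed from the summed counts of each group, with exact 95% intervals for counting error only. They were widest where a control group had 1 or 2 counts. At Locus_65710 the ratio was 2383 in biparental females, with an interval from 427 to 94166 that rests on 1 control count, and 21.7 in biparental males, with an interval from 5.67 to 184. At Locus_72396 the ratio ran from 10.3 in biparental males (4.49 to 29.0) to 362 in uniparental males (64.7 to 14339). In biparental males that ratio came from 1 library, and without caring biparental male replicate 2 the fitted log2 difference of 3.30 became -0.61. At Locus_29626 the ratio was 10.4 in biparental females (5.81 to 20.6) and 10.3 in uniparental females (5.74 to 20.2). In uniparental males the controls had no count at this locus. The level was 53.3-fold higher with 3 counts put in place of that control group, and the lower 95% limit of the ratio was 43.0. At Locus_C912054 the ratios ran from 23.2 in biparental females (9.71 to 72.4) to 96.7 in biparental males (16.99 to 3857). All 5 counts of the biparental control females were in replicate 1, and the fitted log2 difference of 4.50 became 9.38 without it and 3.61 without replicate 2. The ratio in biparental males rests on 1 control count, in replicate 2, without which the fitted difference of 6.36 became 9.16.

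**Figure D2:**
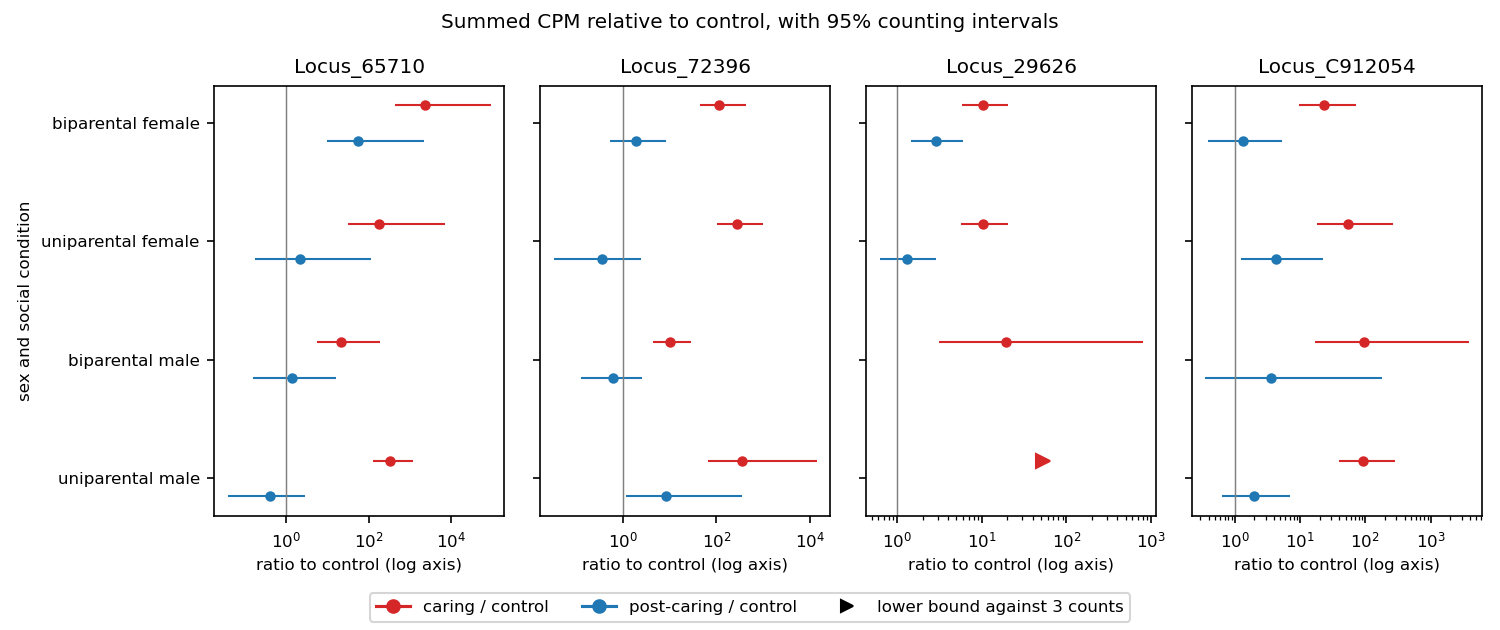
Ratio of caring (red) and post-caring (blue) to control on a log axis, from the summed and scaled counts of the 2 libraries of each group, with bars for the 95% counting interval; the triangle is a lower bound against a control group with no counts, and 2 post-caring ratios of males at Locus_29626, where a group had no counts, are not drawn. All caring intervals drawn lie above 1, whereas most post-caring intervals cross 1.

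After care the loci were again close to the control range. The 8 post-caring libraries of Locus_72396 had a median of 2 counts and a highest value of 9. Those of Locus_C912054 had a median of 4 counts, a lowest value of 1 and a highest value of 12. No post-caring library of Locus_C912054 reached the lowest caring library, a separation found at 0.246% of all loci, and nothing is read from this because the caring values chose the locus. At the other 3 loci at least 1 post-caring library overlapped the caring range.

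The remaining counts were uneven between loci and groups. Locus_65710 had 3 counts or fewer in 7 of the 8 post-caring libraries and 62.9 counts, or 4.46 CPM, in post-caring biparental female replicate 2. Its partner, replicate 1, had 3 counts. With that library included, post-caring biparental females stood at 56.3 times the control level (9.76 to 2256, with 1 control count). The ratio of caring to post-caring in this group was 42.4 (33.2 to 54.9). At Locus_29626, post-caring biparental females had 19 and 21 counts, which is 2.84 times the level of their controls (1.46 to 5.95), while the level during caring was 3.67 times that after care (2.58 to 5.34). Post-caring uniparental females had 14 and 8 counts, a ratio to controls of 1.30 (0.617 to 2.89). At Locus_C912054 the ratio of post-caring to control in uniparental females was 4.26 (1.24 to 22.6), from 6 and 12 counts against 3 control counts in all. At Locus_72396 the ratio was 8.17 in uniparental males (1.16 to 354), from 7.95 and 2 counts against 1 control count. Both post-caring libraries were above both control libraries at 2 of the 4 loci in biparental females, against 18.8% of all loci, at 1 of 4 in uniparental females, against 17.2%, at 2 of 4 in uniparental males, against 23.1%, and at 0 of 4 in biparental males, against 18.9%. At none of the 4 loci did the lowest of the 8 post-caring libraries exceed the highest control library, as it did at 0.0526% of all loci. The control and caring libraries are those on which the loci were picked, so these ratios were not tested.

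Sex differences among caring beetles were not part of the choice and were tested over all 9648 loci that passed edgeR's filter on low counts, as were the other differences below, with edgeR's quasi-likelihood test and Benjamini-Hochberg adjustment within each comparison. All 4 loci passed that filter, but Locus_65710, Locus_72396 and Locus_C912054 did so through their caring libraries, the state in which they were chosen to be high. Under the biparental condition 3 of the 4 loci were higher in caring females than in caring males, at a background of 11.3% of loci called in either direction and 5.17% in this direction. The protease locus was 5.72 ± 1.01 higher on the log2 scale (SE, 2 libraries against 2, edgeR's adjusted p = 0.00177), and it passed the threshold whichever library was left out. The P450 locus was 2.93 ± 0.708 higher (edgeR's adjusted p = 0.0133) and Locus_29626 was 2.68 ± 0.621 higher (edgeR's adjusted p = 0.0125). The last 2 values turn on the unequal biparental male libraries. Without replicate 1 of the caring biparental males they became 1.97 and 1.77 (edgeR's adjusted p = 0.0866 and 0.0763), and without replicate 2 they became 6.81 and 5.84 (edgeR's adjusted p = 0.00150 and 0.00162). Without caring biparental female replicate 2 both also missed the threshold (edgeR's adjusted p = 0.0544 and 0.0937), and the P450 locus missed it with edgeR's likelihood ratio test (adjusted p = 0.0648) and with DESeq2 (adjusted p = 0.167). At Locus_C912054 the difference was 0.25, with a 95% interval from -0.69 to 1.20. Summed fat body markers were 75259 to 84560 CPM in these females and 283 to 339 CPM in these males. Muscle markers were 27588 to 35189 and 76155 to 100343 CPM. Fat body names include the yolk protein vitellogenin, so that gap between the sexes need not be one of tissue content. The part of these markers in the result was not tested.

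Under the uniparental condition 2 of the 4 loci passed, both with the higher level in males. Caring males were higher than caring females at Locus_65710, with a female minus male log2 difference of -2.80 ± 0.829 (SE, edgeR's adjusted p = 0.0273), and at Locus_C912054, with -1.55 ± 0.414 (edgeR's adjusted p = 0.0163). The background was 18.5% of loci called and 10.3% in this direction. The difference at Locus_65710 rests on caring uniparental male replicate 2, without which it was -0.42 (edgeR's adjusted p = 0.819). It was -3.36 without caring uniparental female replicate 1 and -2.37 without replicate 2, and missed the threshold in both cases (edgeR's adjusted p = 0.0916 and 0.195), as it did with edgeR's likelihood ratio test (adjusted p = 0.0576) and with the caring libraries alone (edgeR's adjusted p = 0.0837). At Locus_C912054 the call was lost without caring uniparental female replicate 1 (edgeR's adjusted p = 0.182) and without caring uniparental male replicate 1 (edgeR's adjusted p = 0.170). The P450 locus was 1.64 higher in females, with a 95% interval from 0.36 to 2.92, which did not pass after adjustment (edgeR's adjusted p = 0.0711). It passed in the fits without caring biparental male replicate 1 or 2 (edgeR's adjusted p = 0.0186 and 0.0185). At Locus_29626 the difference was -0.40, with an interval from -1.48 to 0.67. Summed fat body markers, with vitellogenin among them, were 37301 to 38079 CPM in these females and 74.1 to 173 CPM in these males. Muscle markers were 12451 to 13484 and 43034 to 49535 CPM. The part of these markers in the result was not tested.

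**Figure D3:**
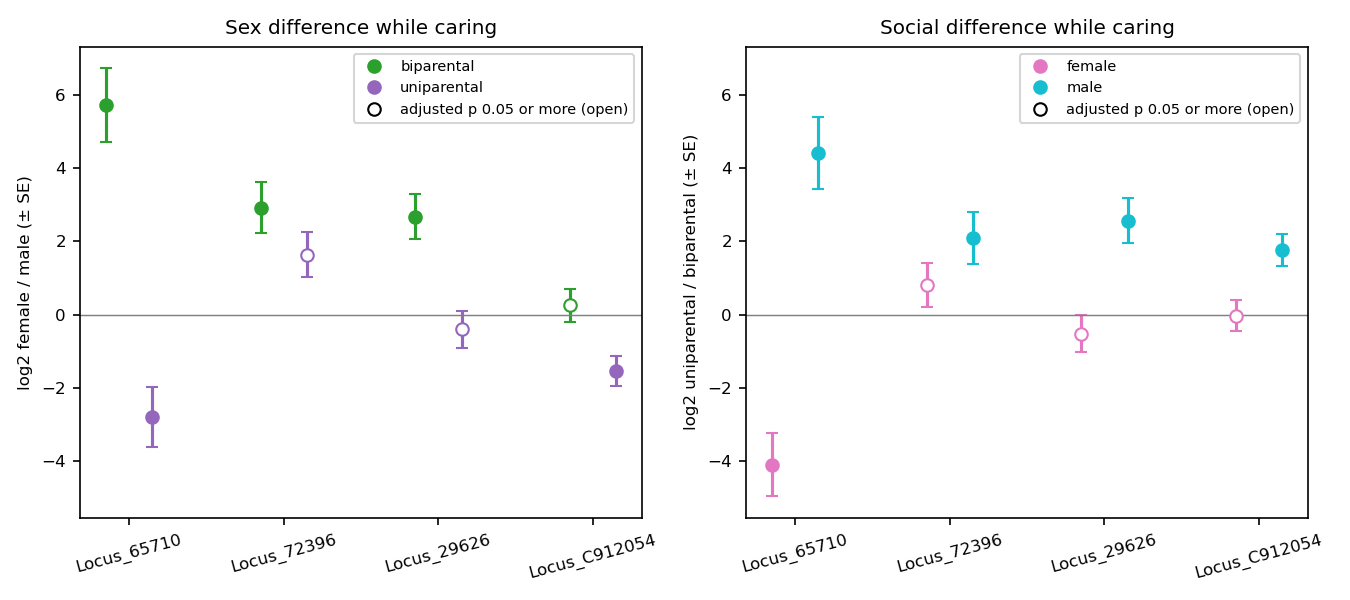
Log2 differences among caring libraries with their standard errors, between the sexes within each social condition (left) and between the social conditions within each sex (right); filled points have an adjusted p under 0.05 in edgeR's quasi-likelihood test. The sex difference of Locus_65710 is 5.72 under the biparental and -2.80 under the uniparental condition, and in males all 4 points lie higher under the uniparental condition.

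Whether the sex difference itself differed between social conditions was tested as an interaction, a comparison added after the data had been seen. Of the 9648 loci, 8 passed, which is 0.0829%, and 0.0726% passed with a negative value. Locus_65710 was among these, with a log2 difference of -8.52 ± 1.31 (SE, edgeR's adjusted p = 0.0160). The values for the other 3 loci were -3.08 for Locus_29626 (edgeR's adjusted p = 0.146), -1.80 for Locus_C912054 (0.193) and -1.29 for Locus_72396 (0.528), and none of these passed. Locus_29626 passed with edgeR's likelihood ratio test (adjusted p = 0.0238) and without caring biparental male replicate 2, where its value was -6.28 (edgeR's adjusted p = 0.0260). The size at Locus_65710 lay between -9.37 and -6.11 whichever library was left out. Its call was lost without any of 6 of the 8 caring libraries, namely biparental female replicate 2 (edgeR's adjusted p = 0.0585), biparental male replicates 1 and 2 (0.107 and 0.0796), uniparental female replicates 1 and 2 (0.101 and 0.185) and uniparental male replicate 2 (0.101). It was also lost with the 8 caring libraries alone (edgeR's adjusted p = 0.0841).

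Between the social conditions, caring females differed at 1 of the 4 loci. Locus_65710 was lower in uniparental than in biparental females, with a log2 difference of -4.10 ± 0.866 (SE, edgeR's adjusted p = 0.00160), against a background of 39.2% of loci called and 19.9% in this direction. It passed whichever library was left out, with values from -4.72 to -2.99. Opsin markers summed to 831 to 1612 CPM in these biparental and 4404 to 5271 CPM in these uniparental females, fat body markers to 75259 to 84560 and 37301 to 38079 CPM, and muscle markers to 27588 to 35189 and 12451 to 13484 CPM, and their part in the result was not tested. The intervals of the other 3 reached from -0.45 to 2.07 at Locus_72396, from -1.61 to 0.57 at Locus_29626 and from -0.93 to 0.87 at Locus_C912054. Caring males were higher under the uniparental condition at all 4 loci, where 46.8% of loci were called in either direction and 25% in this direction. The log2 differences were 4.42 ± 0.982 at Locus_65710 (SE, edgeR's adjusted p = 0.00169), 2.09 ± 0.703 at Locus_72396 (0.0221), 2.57 ± 0.615 at Locus_29626 (0.00354) and 1.77 ± 0.433 at Locus_C912054 (0.00331). Only the call at Locus_29626 was kept with each library left out. Without caring uniparental male replicate 2 the difference at Locus_65710 was 2.01 (edgeR's adjusted p = 0.0788) and that at Locus_72396 was 1.72 (0.116). Without caring uniparental male replicate 1 it was 1.29 at Locus_C912054 (edgeR's adjusted p = 0.0642). Without caring biparental male replicate 1 it was 1.17 at Locus_72396 (edgeR's adjusted p = 0.140) and 1.68 at Locus_29626 (0.0196), and without replicate 2 it was 6.003 and 5.76. With edgeR's likelihood ratio test and with DESeq2 the difference at Locus_72396 also missed the threshold (adjusted p = 0.0998 and 0.226), as it did with the caring libraries alone (edgeR's adjusted p = 0.0574). Opsin markers summed to 325 to 1021 CPM in caring biparental males and 3754 to 4434 CPM in caring uniparental males. Between the same groups muscle markers went from 76155 to 100343 CPM down to 43034 to 49535 CPM, fat body markers from 283 to 339 down to 74.1 to 173 CPM, and 15 odorant-binding protein loci, markers of sense organs, from 8285 to 8745 down to 3979 to 3986 CPM. The part of these tissues in the result was not tested.

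The 2 social conditions also differed widely where no beetle cared. Their control females differed at 37.3% and their control males at 41.9% of all loci, while at 3 of the 4 loci counts in controls were too few for a difference to be detectable. At Locus_29626 both control female groups had 12 counts, and the 95% interval of the uniparental minus biparental log2 difference reached from -2.38 to 1.42. The 2 sets of libraries also did not overlap in the share of expected counts that were not whole, 33.3% to 38.2% in biparental and 40.4% to 48.9% in uniparental libraries. What separates the 2 sets of libraries apart from the social condition cannot be told apart from it.

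After care, tests between the sexes and social conditions had few counts to rest on. Locus_65710 and Locus_C912054 entered them only because their caring libraries passed the filter. Fitted differences are given where the groups held at least 30 counts together. At Locus_29626, post-caring biparental females had 19 and 21 counts and both libraries of post-caring biparental males had 0. Females were 12.4-fold higher with 3 counts put in place of the male group, and the lower 95% limit for counting error was 9.65. The fitted difference passed (edgeR's adjusted p = 0.00827, at a background of 10.1% of loci called and 3.79% in this direction). Without post-caring biparental male replicate 2 that call was lost (edgeR's adjusted p = 0.0659). At Locus_65710 the difference between post-caring biparental females and males was 4.32 ± 1.93 (SE, edgeR's adjusted p = 0.169). It was called with edgeR's likelihood ratio test (adjusted p = 0.0135) and with DESeq2 (adjusted p = 0.00734). The same locus was lower in post-caring uniparental than in biparental females, with a log2 difference of -5.09 ± 1.82 (SE, edgeR's adjusted p = 0.0346), against 40.5% of loci called and 19.8% in this direction. That difference was -1.52 without post-caring biparental female replicate 2 (edgeR's adjusted p = 0.765), and was lost as well without post-caring uniparental female replicate 1 (0.140) or replicate 2 (0.125). At Locus_29626 the corresponding difference was -1.60 ± 0.673 (edgeR's adjusted p = 0.0707), which passed with the likelihood ratio test (adjusted p = 0.0290) and without caring biparental male replicate 1 or 2 (edgeR's adjusted p = 0.0187 and 0.0190). Between the sexes after uniparental care, where 5.64% of loci were called, the difference at Locus_C912054 was 0.38, with a 95% interval from -1.20 to 1.96, and the other 3 loci were under the minimum of 30 counts. Among these, Locus_29626 had 22 counts in females and 1 in males, a ratio of 19.2 (3.10 to 791), and its fitted difference did not pass (edgeR's adjusted p = 0.0901).

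A second locus shared the blast hit of Locus_29626. Locus_5594 was not near silence in controls, where it ranged from 0.699 to 16.8 CPM, and it ranged from 1.36 to 12.6 CPM while caring and from 1.10 to 21.5 CPM after care. It was higher in caring females than males by 2.12 ± 0.421 on the log2 scale under the biparental condition (SE, edgeR's adjusted p = 0.00434) and by 1.20 ± 0.370 under the uniparental condition (0.0332). Caring uniparental males were 1.82 ± 0.448 above their controls (edgeR's adjusted p = 0.0275), while the other 3 caring groups were not called. The biparental sex difference lost its call without caring biparental female replicate 2 (edgeR's adjusted p = 0.0575) or caring biparental male replicate 1 (0.0773). The uniparental sex difference lost it without caring uniparental female replicate 1 (0.254), caring uniparental male replicate 1 (0.0670) or replicate 2 (0.274). The caring change in uniparental males lost it without any of the 4 libraries compared (caring replicates 1 and 2, 0.176 and 0.0757, and control replicates 1 and 2, 0.190 and 0.130). The counting can share reads between similar loci, which leaves values that are not whole. Expected counts of Locus_29626 were whole except in the libraries with 63.89, 124.01 and 4.01 counts. A common blast hit does not show that Locus_29626 and Locus_5594 are near-identical copies, and sharing of reads between them was not tested.

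The loci were picked for being low in controls and high while caring, so a high correlation between them over all libraries follows from the choice. Pearson's r of log2(CPM + 1) between pairs of them lay between 0.77 and 0.89 over the 24 libraries. Over the 8 caring libraries it lay between 0.03 for Locus_72396 with Locus_C912054 and 0.79 for Locus_72396 with Locus_29626, and over the other 16 between 0.07 and 0.63. The points share libraries and depth, and most non-caring values are within a few counts of 0.

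Among the other loci, the profile most like that of Locus_72396 belonged to a further P450 locus, Locus_16901, a match to cytochrome P450 4C1 (r = 0.99 over 24 libraries), followed by Locus_78203, a putative esterase (0.97), and Locus_33931, a hypothetical protein (0.96). The most similar profile to Locus_65710 (0.93), to Locus_29626 (0.93) and to Locus_C912054 (0.93) was in each case that of Locus_26800, a match to a beta-glucosidase precursor, an enzyme class that releases glucose from plant and microbial glycosides. By Spearman's rho Locus_26800 ranked first for Locus_C912054 but only 5th for Locus_65710 and 44th for Locus_29626, and with a pseudocount of 0.1 it ranked 8th for Locus_29626. Further neighbours of Locus_65710 were the P450 locus Locus_3508 (0.91) and the alcohol dehydrogenase locus Locus_C828650 (0.91). Those of Locus_29626 were Locus_18689 (0.93) and Locus_50333 (0.92), both hypothetical proteins, and those of Locus_C912054 were Locus_C910314, a match to a kynurenine aminotransferase (0.92), and the glucose dehydrogenase locus Locus_38423 (0.91).

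How far the pattern extends was counted with a rule chosen with results of these data known, a mean of at most 5 counts in controls and of at least 50 in caring libraries. It took 17 loci, the 4 described here and 13 others, among them P450 (Locus_16901, Locus_3508), beta-glucosidase (Locus_26800), glucose dehydrogenase (Locus_38423), alcohol dehydrogenase (Locus_C828650) and carboxypeptidase (Locus_C908342) matches. The others were a serine protease homolog (Locus_33135), a cuticular protein (Locus_61059), an allergen match (Locus_C891842) and Locus_6903, Locus_31494, Locus_C911890 and Locus_16741. A low level of caring biparental male replicate 1 was common among them. This library was below replicate 2 in CPM at 3 of the 4 and at 10 of the 13 other loci, against 44.3% of all loci. At the P450 locus Locus_3508, for example, the 2 libraries had 0 and 38 counts. Post-caring biparental female replicate 2 was above replicate 1 in CPM at all 4 and at 11 of the 13 others, against 50.7% of all loci. The allergen match Locus_C891842 had 0 and 52 counts in post-caring biparental female replicates 1 and 2. In caring biparental male replicates 1 and 2, opsin markers summed to 1021 and 325 CPM and muscle markers to 100343 and 76155 CPM. Fat body markers summed to 283 and 339, odorant-binding protein loci to 8745 and 8285, and neuropeptide or synaptic names to 8.83 and 2.56 CPM. In post-caring biparental female replicates 1 and 2 these sums were 4328 and 451 (opsin), 30311 and 25996 (muscle), 172547 and 232163 (fat body), 9868 and 4578 (odorant-binding), and 1.55 and 1.56 CPM (neuropeptide or synaptic). The part of these markers in the differences between replicates was not tested.

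**Figure D4:**
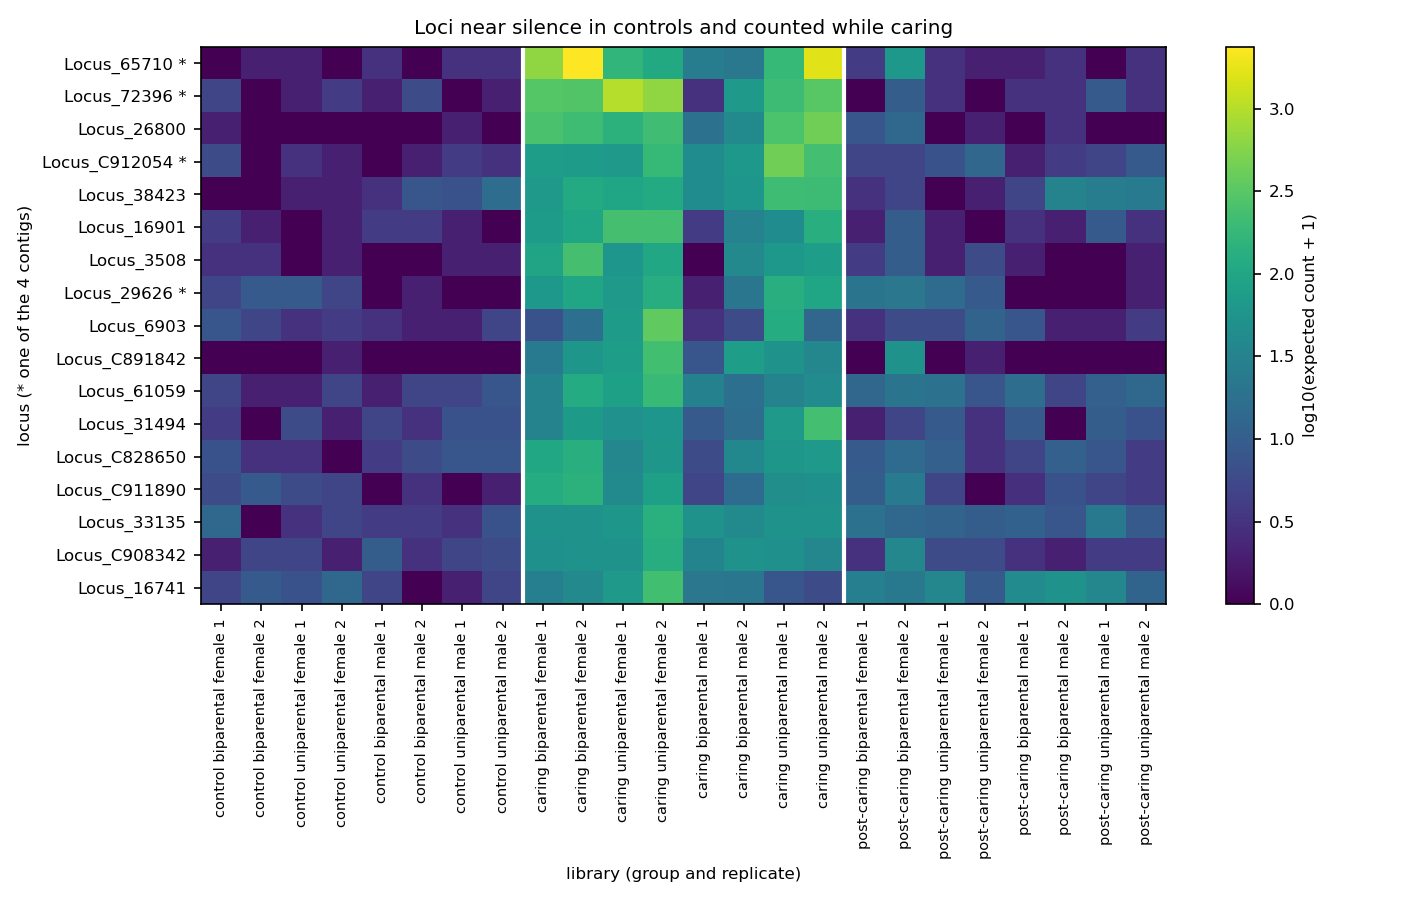
Expected counts, as log10(count + 1), of the 17 loci with a mean of at most 5 counts in controls and at least 50 while caring (rows, asterisks mark the 4 loci described) in the 24 libraries (columns, grouped as control, caring and post-caring from left to right). Caring biparental male replicate 1 is darker than replicate 2 at 3 of the 4 loci, and post-caring biparental female replicate 2 is brighter than replicate 1 at 3 of the 4, with 4 counts in both libraries at Locus_C912054.

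The protease and P450 loci were set beside other loci of their enzyme families. The lists were drawn by blast name from the study's set of caring genes. That set was chosen on these libraries, so the counts are not independent evidence of a direction. Locus_29626 and Locus_5594 were outside the P450 list because their blast names do not hold that word. Of 26 other serine protease loci, 21 were tested. They were higher in caring than in control beetles at 6 loci and lower at 1 in biparental females, at a background of 7.93% of loci called. In uniparental females 12 were higher and none lower (11.2%), and in uniparental males 5 were higher and 1 lower (5%). Their median log2 difference lay between 1.06 in biparental males and 2.21 in uniparental females, against -0.02 to 0 over all loci. In biparental males 0 passed edgeR's quasi-likelihood test, against 0.0207% of all loci. By edgeR's likelihood ratio test 1 passed and by DESeq2 2, where 28 and 30 of all loci did. An unadjusted p under 0.05 in the quasi-likelihood test was found at 7 of these proteases, where 780 of all loci had one with no filter on low counts.

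Of 22 other P450 loci, 21 were tested, and they went both ways. In biparental females 7 were higher and 8 lower while caring, at a background of 7.93% of all loci called. In uniparental females these counts were 8 and 6 (11.2%), and in uniparental males 4 and 3 (5%). The list comes from loci called for caring on these libraries, so nothing is read from the excess. Between caring females and males, 6 P450 loci were higher and 3 lower under the biparental condition, where 11.3% of all loci were called, and 3 were higher and 2 lower under the uniparental condition, where 18.5% were. For the proteases these counts were 2 and 1, then 4 and 1, of 21 loci, which is near the shares over all loci. In biparental males, caring against control, 0 P450 loci passed edgeR's quasi-likelihood test, against 0.0207% of all loci. By edgeR's likelihood ratio test 2 passed and by DESeq2 1, where 28 and 30 of all loci did. An unadjusted p under 0.05 in the quasi-likelihood test was found at 4 P450 loci, where 780 of all loci had one with no filter on low counts. The 2 highest and 2 lowest P450 changes among those called in caring uniparental males were at Locus_16901, with a log2 difference of 6.60 ± 1.17 (SE, edgeR's adjusted p = 0.00504), Locus_50252 with 6.10 ± 1.04 (0.00401), Locus_2266 with -2.22 ± 0.504 (0.0185) and Locus_3063 with -5.71 ± 1.12 (0.00822). The blast name of Locus_3063 is an antennae-rich P450. The serine protease loci so chosen were Locus_58683, with 4.87 ± 1.02 (edgeR's adjusted p = 0.0183), Locus_330, a chymotrypsin-like proteinase, with 4.38 ± 0.865 (0.00842), and Locus_C904384, with -1.83 ± 0.434 (0.0228). With 1 of the 4 libraries compared left out, 4 of these 7 lost their call without caring uniparental male replicate 1 (edgeR's adjusted p up to 0.102), 5 without caring replicate 2 (0.180), 5 without control replicate 1 (0.182) and 4 without control replicate 2 (0.253). Without control replicate 2 the value was 9.10 at Locus_330 and -1.09 at Locus_C904384.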

How the data were processed

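The 24 libraries each held RNA from 10 pooled heads. The authors trimmed reads with Trimmomatic 0.30, assembled them with SOAPdenovo-trans, kept contigs with an arthropod blast hit, mapped reads with Bowtie2 and deposited expected counts per locus from RSEM, without normalization and with no replicates pooled. Values were not whole at 33.3% to 38.2% of loci in biparental libraries and at 40.4% to 48.9% in uniparental libraries, and were rounded. Groups and replicate numbers follow the sample titles, and for control males these numbers are the reverse of those in the deposited column names.

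Counts were tested with edgeR 4.0.16 in R 4.3.3 (TMM factors, filterByExpr with a minimum count of 10, which left 9648 of 11403 loci, a mean for each of 12 groups and 12 residual degrees of freedom). Calls come from the quasi-likelihood test with Benjamini-Hochberg adjustment within a comparison and a threshold of 0.05. The standard error is the size of the log2 difference divided by the square root of F. The study states a likelihood ratio test, which was run as an alternative, as were DESeq2 1.42.0, RLE normalization, no filter, a replicate block, the libraries of one state alone and each library left out. The fit was tested on simulated data. The 2 libraries of a group differed by more than sampling noise (chi-square divided by its degrees of freedom between 18.7 and 74.4), so the 2 libraries per group limit precision at abundant loci. Ratios have exact conditional binomial intervals.

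The 4 loci, the gene lists, the rule of 5 and 50 counts and the tests were chosen with earlier results of these data known. The interaction and the minimum of 30 counts for reporting a difference were chosen after the counts had been seen. By the rule for named loci, the 3 most similar profiles of each locus, loci with the same blast hit, the loci under the rule of 5 and 50 counts, and from each enzyme list the 2 highest and 2 lowest changes in caring uniparental males were named. The 866 loci of the study's Supplementary Data 1 gave blast names only, so marker and enzyme lists hold loci of the study's caring set.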

Additional observations from a re-analysis of the deposited data

Results flagged for a closer look

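The difference between caring females and males depended on the social condition at Locus_65710, the chymotrypsin-like protease match, by the interaction test. The uniparental minus the biparental sex difference was -8.52 ± 1.31 on the log2 scale (SE, edgeR's quasi-likelihood test, Benjamini-Hochberg adjusted p = 0.0160). Females had the higher mean in the biparental condition, 52.7 times that of males, and males had the higher mean in the uniparental condition, 6.89 times that of females. Without caring uniparental male replicate 2 the uniparental log2 difference of -2.80 became -0.42 (edgeR's adjusted p = 0.819), and without caring biparental female replicate 2 the biparental difference of 5.72 became 4.62. The call was lost in 6 of the 8 fits that left out 1 caring library.

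Locus_26800, a beta-glucosidase match, differed in the same test, with -3.83 ± 0.553 (SE, edgeR's adjusted p = 0.0160). It belongs to the 13 other loci taken by the rule on mean control and caring counts, all of which were tested. None of the rest passed. The value was negative at 7 of the 13, Locus_26800 among them. It was positive at the remaining loci, up to 3.95 ± 0.956 at Locus_16741 (SE, edgeR's adjusted p = 0.121). While caring, Locus_26800 had 253 and 214 counts in biparental females, 18 and 39 in biparental males, 147 and 221 in uniparental females and 263 and 433 in uniparental males. In the same order, its mean levels were 14.3, 2.03, 6.66 and 13.6 CPM. The call at Locus_26800 was lost with the caring libraries alone (edgeR's adjusted p = 0.0757) and without caring biparental female replicate 2 (0.0525), biparental male replicate 1 (0.107), uniparental female replicate 1 (0.129) or 2 (0.165), or uniparental male replicate 2 (0.101).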

How the results depend on the processing

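The 4 loci gave 40 differences between groups with enough counts. All 40 kept their direction and, where tested, their side of the threshold without the filter on low counts and with RLE normalization, as did 39 with the replicate block, 34 with the likelihood ratio test, 35 of the 38 that DESeq2 could adjust and 19 of the 22 that libraries of 1 state could give, and none of these reversed. Leaving out libraries reversed 3 of them. Locus_C912054 in caring females, uniparental minus biparental, ranged from -0.67 to 0.40 and was 0.09 without caring biparental female replicate 1. The same locus after uniparental care, female minus male, ranged from -0.34 to 1.13 and was -0.18 without post-caring uniparental male replicate 1. Locus_72396 in biparental males, caring minus control, ranged from -0.61 to 4.83. The 2 libraries of a group limit every call, and a locus at 0 to 5 counts can show no difference between control groups.

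The count of loci called over the whole table moved with the test. For caring minus control it was 2 in biparental males with the quasi-likelihood test, 28 with the likelihood ratio test, 30 with DESeq2 and 5 with no filter, and in uniparental males it was 482, rising to 754 by likelihood ratio and 817 by DESeq2. For the interaction it was 8, then 100 and 207, and with the caring libraries alone 0 passed edgeR's quasi-likelihood test while 1717 had an unadjusted p under 0.05. Fitted on post-caring libraries alone, the sex difference was called at 436 instead of 976 loci under the biparental and at 203 instead of 544 under the uniparental condition. A fit on 1 state cannot give caring minus control.

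With 1 library left out, the sex difference while caring was called at 296 to 1224 loci (biparental) and 634 to 2001 (uniparental), and after care at 392 to 1032 and 85 to 607. The social difference was called at 2417 to 3970 loci in caring females, 2580 to 3989 in post-caring females, 2706 to 4356 in post-caring males and 2376 to 3800 in control females. Caring minus control gave 176 to 1038 loci in biparental females, 337 to 1149 in uniparental females, 75 to 564 in uniparental males and 0 to 11 in biparental males, where 524 to 893 loci had an unadjusted p under 0.05 in the cases with 0. The interaction gave 0 to 15, with 928 to 1106 loci at an unadjusted p under 0.05 in the cases with 0.

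The correlation of deviations between groups, matched by replicate number, ranged from -0.50 to 0.55 with a median of 0.05. It passed 0.1 in 25 of 66 pairs of groups. The order of the numbers may differ between groups, so these signed values cannot exclude a pairing of libraries between particular groups. With the replicate block, caring minus control was called at 5 loci in biparental males, and the sex difference of Locus_65710 in caring uniparental beetles was -2.08 (edgeR's adjusted p = 0.0558).

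Of 48 mean levels, 2 moved by more than 1 SD when CPM was taken over the deposited totals, Locus_72396 in post-caring biparental males (0.134 CPM) and Locus_29626 in caring uniparental females (4.90 CPM). Of the 12 most similar profiles, 5 left the first 3 places with a pseudocount of 0.1 and 9 with Spearman's rho.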
